A study of Mus musculus with 66 samples.

Results

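Regions that carried both H3K4me3 and H3K27me3 numbered 1316 of the 94469 in the union of peaks from mouse small intestinal organoids. Members were chosen by measured levels of both marks: a region was kept when its mean H3K4me3 score over 9 libraries lay in the top 15% of all regions, at 11.1 or more, and its mean H3K27me3 score over 9 libraries lay in the top 10%, at 18.2 or more. A score is the number of reads in a region, normalised between libraries and rounded by the authors. The levels of these marks therefore are given as a description, while H3K27ac, DNA accessibility (ATAC-seq), RNA, Hnf4g binding and the DNA sequence were not used by the rule.

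The organoids carried a GFP and diphtheria toxin receptor reporter in 1 Lgr5 allele (Lgr5 GFPDTR/+) and grew in 3 media. ENR medium, the regular culture, held epidermal growth factor, Noggin and 5% R-Spondin-1 conditioned medium. CV cultures, labelled as enriched for stem cells, had ENR medium with 3 µM CHIR99021, which inhibits the kinase Gsk3 and so activates Wnt signalling, and 1 mM valproic acid, which inhibits histone deacetylases. EN cultures, labelled as depleted of stem cells, had ENR medium without R-Spondin-1, an enhancer of Wnt signalling. Each culture had 3 libraries per histone mark, 4 for ATAC-seq, 4 for RNA and 1 for the nuclear receptor Hnf4g with a column in the tables. Per the study's methods, CV cultures were kept in their medium for longer than EN cultures. The agents of CV medium, the time in it and the cells it enriches for cannot be told apart as sources of a difference. In bulk samples fewer cells with a mark cannot be told apart from less of the mark per cell.

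Trithorax-type complexes place H3K4me3 at the start of active or poised genes, and Polycomb repressive complex 2 places H3K27me3 at genes that are kept silent. Chromatin with both marks is called bivalent and is known from embryonic stem cells, where it lies at CpG-rich promoters of developmental regulators. In female mammals the inactive X chromosome is also coated with H3K27me3 while its active homologue keeps H3K4me3. Bulk libraries do not show whether the marks lay on the same allele or in the same cell.

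Stretches of 200 bases without exons, the nearest to the centre of a member, are given for some autosomal members to which the comparisons of cultures return and for a member on X. They were read from mm9 on the strand of the gene, 5′ to 3′, with every CpG in capitals to show how unevenly CpG is spread over these stretches. A stretch need not lie upstream of the start site. The Hoxc6 stretch lay at chr15:102829203-102829402 on the plus strand and Fst at chr13:115249164-115249363 on the minus strand. Plod2 lay at chr9:92436861-92437060 on the plus strand, Rbpms at chr8:35040314-35040513 on the minus strand and Rbbp7 at chrX:159198640-159198839 on the plus strand.
Hoxc6: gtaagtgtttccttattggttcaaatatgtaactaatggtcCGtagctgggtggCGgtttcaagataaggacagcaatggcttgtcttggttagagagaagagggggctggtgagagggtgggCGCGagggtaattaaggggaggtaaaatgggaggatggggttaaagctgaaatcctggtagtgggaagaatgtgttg
Fst: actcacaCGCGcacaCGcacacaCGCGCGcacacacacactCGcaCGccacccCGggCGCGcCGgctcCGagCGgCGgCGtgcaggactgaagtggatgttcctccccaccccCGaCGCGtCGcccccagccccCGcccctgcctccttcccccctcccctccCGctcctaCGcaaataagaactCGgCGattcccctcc
Plod2: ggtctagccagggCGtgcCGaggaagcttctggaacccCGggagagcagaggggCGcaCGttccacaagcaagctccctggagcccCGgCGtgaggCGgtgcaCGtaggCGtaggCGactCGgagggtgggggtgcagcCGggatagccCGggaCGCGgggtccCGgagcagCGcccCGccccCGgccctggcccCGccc
Rbpms: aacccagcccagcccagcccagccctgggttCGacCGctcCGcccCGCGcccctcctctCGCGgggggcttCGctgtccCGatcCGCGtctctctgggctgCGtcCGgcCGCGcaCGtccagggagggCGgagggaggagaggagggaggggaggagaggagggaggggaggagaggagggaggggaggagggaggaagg
Rbbp7: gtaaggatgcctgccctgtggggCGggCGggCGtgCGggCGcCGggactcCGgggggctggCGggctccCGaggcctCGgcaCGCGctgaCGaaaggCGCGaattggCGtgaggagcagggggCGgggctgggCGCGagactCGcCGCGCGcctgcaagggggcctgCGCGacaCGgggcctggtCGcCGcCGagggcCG
The Hoxc6 stretch had 4 CpGs and 48.0% G or C, against 25 and 71.5% for Fst, 21 and 75% for Plod2, 17 and 74.5% for Rbpms and 30 and 79.0% for Rbbp7.

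The members fell into 4 classes, defined after the values were seen. Autosomal members with an annotated start site within 500 bp numbered 827 (62.8%), autosomal members without such a start site 258 (19.6%), and members on X 168 (12.8%). The remaining 63 (4.79%) had a mean H3K27me3 score of at least 182, which is 10 times the threshold, and are called very high below whatever their chromosome. In all, 989 members (75.2%) lay at a start site, against 19.1% of all regions. Members were long, with a median of 960.5 bp against 220 bp for all regions, and a longer region collects more reads. Neighbouring members are not fully independent, since the 1000 bp windows around the centres of 74 members (5.62%) overlapped. The 989 start-site members reached 1080 genes, 34 of which had more than 1 member.

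**Figure D1:**
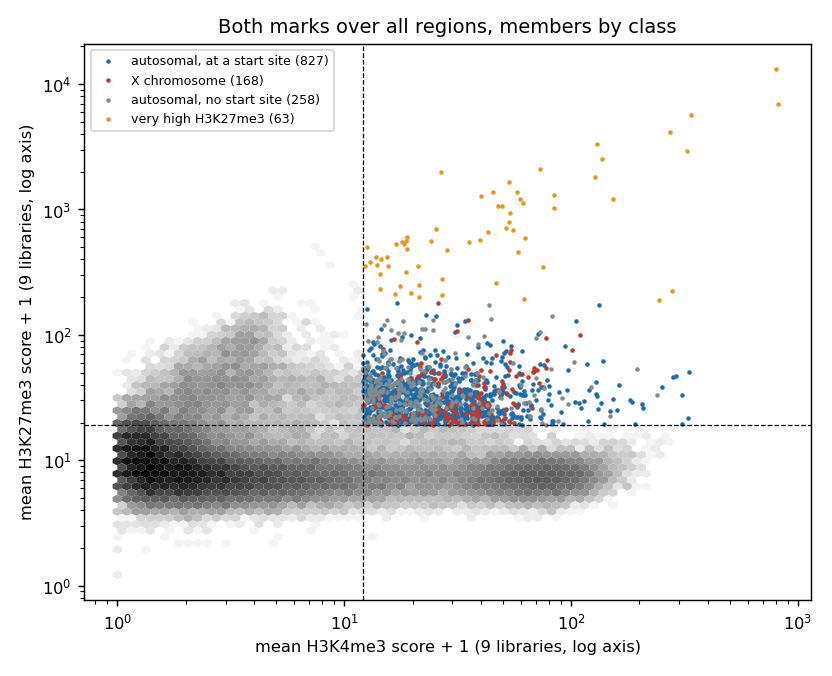
Mean H3K4me3 score plus 1 (horizontal, log axis) against mean H3K27me3 score plus 1 (vertical, log axis) for all 94469 regions as shaded hexagons and for the 1316 members as points coloured by class, with the thresholds dashed. The 63 very high regions stand above the rest on the H3K27me3 axis, and the other members extend without a gap from the thresholds.

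The members passed without a gap into the regions outside. Of several tied regions, a second member at Kif26b and that at Doc2b lay just inside the H3K4me3 threshold at 11.1, and those of Maged2 and Ndrg4 just outside at 11. Arhgap22, Taco1 and Specc1 lay just inside the H3K27me3 threshold at 18.2, and Nsdhl and Diap2 just outside at 18.1. Because the rule averages over cultures, a member need not pass in each: the culture's own means met both thresholds in 751 members (57.1%) in CV, 1116 (84.8%) in ENR and 840 (63.8%) in EN. Both thresholds were met in all 3 cultures by 403 members (30.6%) and in none by 38. In CV it was mostly H3K27me3 that fell short, with 786 members at or above its threshold against 1278 for H3K4me3, whereas in EN the numbers were 1149 for H3K27me3 and 967 for H3K4me3.

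Autosomal start-site members had less acetylation and accessibility than other regions strong in H3K4me3, and also less H3K4me3. Per kb of region, their median H3K27ac score was 10.3 and their median ATAC score 15.6, against 51.0 and 45.6 at the 12885 other regions in the top 15% by H3K4me3, called H3K4me3-strong here. Their median H3K4me3 score per kb was 24.0 against 41.9, so the 2 groups were not alike in H3K4me3. At the other H3K4me3-strong regions on autosomes with a start site the medians per kb were 43.6 for H3K4me3, 51.3 for H3K27ac and 47.6 for ATAC. Members on X did not share the low H3K27ac and ATAC, with medians of 33.4 for H3K27ac and 43.9 for ATAC per kb, beside 27.1 for H3K4me3. The share of members above the median of all regions depended on length: 95.1% for H3K27ac and 84.2% for ATAC by score per region, but 33.7% and 32.8% per kb. Per kb it was 15.2% and 23.9% at autosomal start-site members, 80.4% and 74.4% on X, and 92.3% and 73.6% at the other H3K4me3-strong regions.

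The DNA of the members was rich in CpG. In the 300 bp around the centre, autosomal start-site members had a median of 71.3% G or C, 10.7 CpGs per 100 bp and an observed to expected CpG ratio of 0.848. The other H3K4me3-strong regions at a start site had 63.7%, 7.33 and 0.757, and all regions 49.0%, 1.33 and 0.246. Of the 2849 regions that met the H3K27me3 threshold with H3K4me3 below the median, called H3K27me3-only here, the medians were 51.3% G or C and a ratio of 0.285, close to those of all regions. Members on X had 65.7% and 0.773, members without a start site 61.0% and 0.697, and very high members 49.3% and 0.436.

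Short motifs were counted in the same windows on both strands. The GC box GGGCGG, which Sp factors bind, occurred in 72.2% of the windows of autosomal start-site members, 52.5% of those of other H3K4me3-strong start-site regions and 16.9% of all. The TCF/LEF core CTTTGAT, through which Wnt signalling acts, occurred in 1.33%, 1.84% and 5.57%. The HNF4 motif CAAAGTCCA occurred in 0.121%, 0.454% and 2.28%. Neither AT-containing motif overlaps the GC box, and both are less likely in GC-rich sequence.

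Genes of developmental transcription factors had a member at their start more often than genes at large. Of 180 genes in 4 lists of Hox, other homeobox, Sox, Fox, Gata, T-box and bHLH factors with a region at a start site, 48 (26.7%) had a member, against 1080 of 15695 genes (6.88%). The shares were 6 of 24 Hox genes (25%), 22 of 75 other homeobox genes (29.3%), 13 of 49 Sox, Fox, Gata and T-box genes (26.5%) and 7 of 32 bHLH genes (21.9%). Among signalling genes, 16 of 57 in the Wnt list (28.1%), 8 of 41 in the BMP and TGF-beta list (19.5%) and 8 of 52 in the FGF, Hedgehog, Notch and Eph list (15.4%) had a member. The Wnt members were mostly ligands (Wnt2b, Wnt4, Wnt5b, Wnt6, Wnt7a, Wnt7b, Wnt9a, Wnt10a and Wnt11), next to the inhibitors Frzb, Nkd1, Nkd2 and Notum, the receptor Fzd3 and the nuclear factors Lef1 and Tcf7l1. Of 45 intestinal lineage genes 2 had a member, among them Pou2f3 (a tuft cell factor), and of 45 genes of the Polycomb and trithorax machinery only Rbbp7, which lies on X. None of Lgr5, Sox9, Ascl2, Axin2, Atoh1, Neurog3, Cdx1, Cdx2, Hnf4a, Hnf4g, Gata4 and Gata6, the stem and lineage regulators of this epithelium that were looked up, had a member.

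Markers of other cell types were looked up as well, since developmental genes can be active in stroma. Of the mesenchyme list 5 genes had a region at a start site, and of these only Pdgfra had a member (20%, against 6.88% of all genes). The immune list had 1 gene with such a region and the neuronal list 6, and 0 of these had a member. Lists this small cannot show whether such markers are rarer or more frequent among members. The summed TPM (a level scaled to transcript length and library size) of 6 mesenchyme markers, of which Col3a1 and Pdgfra were not listed or at 0, was 2.81 to 4.02 in CV, 6.20 to 7.46 in ENR and 15.6 to 20.0 in EN. Of the 4 mesenchyme transcripts tested by edgeR, 1 was higher and 0 lower in EN, against both CV and ENR. That of 7 stem cell markers was 302 to 337 in CV, 931 to 1019 in ENR and 18.4 to 21.2 in EN, so that the summed level in CV, the culture labelled as stem cell enriched, was below that in ENR (4 of the 7 lower and 2 higher by edgeR), and that of 7 enterocyte markers 17468 to 18595, 8698 to 10112 and 44326 to 51891. Goblet markers summed to 1671 to 1792, 2807 to 3020 and 6201 to 7418, enteroendocrine markers to 49.8 to 62.9, 576 to 629 and 1708 to 2245, tuft markers to 0.729 to 2.08, 15.1 to 16.7 and 27.4 to 37.8, and Paneth markers to 5941 to 6655, 14793 to 16212 and 5200 to 5638 in CV, ENR and EN. The sums do not show whether the markers of a list moved together. By edgeR, 3 enterocyte markers were higher and 3 lower in CV than in ENR. In EN against CV 7 enterocyte markers were higher and 0 lower, and 2 Paneth markers were higher and 3 lower. Immune markers summed to at most 2.12 and neuronal markers to at most 2.603 in any library. The part of these differences in cell makeup in the results was not tested.

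The X chromosome held 172 members (13.1%), 4 of them very high, but 2.63% of all regions. Of the 334 H3K4me3-strong regions on X, 172 were members (51.5%, exact 95% interval 46 to 57.0%, which covers counting error only), against 1144 of 13867 elsewhere (8.25%, 7.80 to 8.72%). Among H3K4me3-strong start-site regions without the very high ones, 151 of 300 on X were members (50.3%), and the autosomes ranged from 5.05% on chromosome 19 to 9.66% on chromosome 9. The difference extended to all regions of the chromosome, where the median H3K27me3 score was 15.7 against 7.56 elsewhere.

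Genes known to escape X inactivation in the mouse, listed after values were seen, lay outside the set. At H3K4me3-strong start-site regions the mean H3K27me3 score was 4.56 at Kdm6a (an H3K27 demethylase), 7.22 at Kdm5c (an H3K4 demethylase), 8.22 at Eif2s3x (a translation initiation factor) and 10.0 at Ddx3x (an RNA helicase). The start of Xist, the RNA that coats the inactive X, had 6.44, and the regions at 5530601H04Rik had 5.22 and 6.56. Of the 301 such regions on X, between 0 and 13 scored lower than each of these. The union held 0 regions on Y, and Y-linked Ddx3y reached at most 4 counts and Usp9y 0 in any RNA library.

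**Figure D2:**
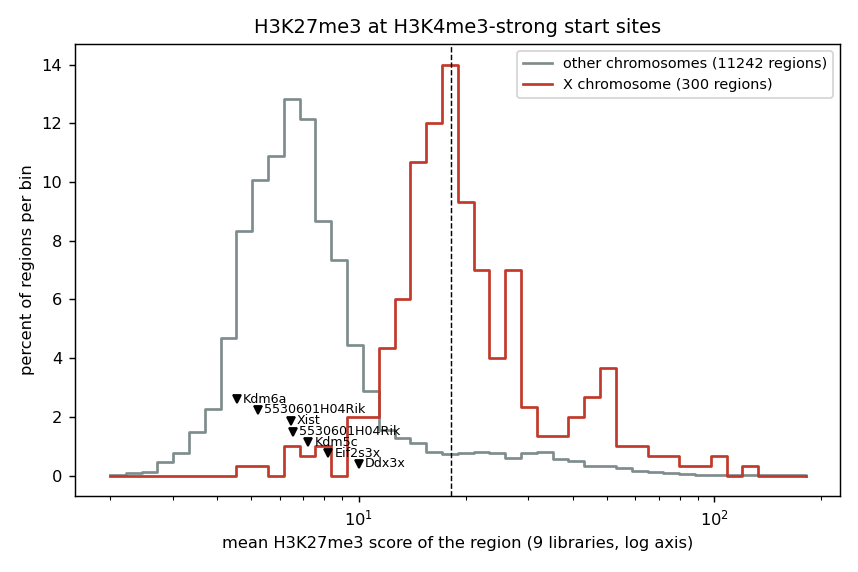
Histogram of the mean H3K27me3 score at H3K4me3-strong regions with a start site, without the very high ones, for X (300 regions) and the other chromosomes (11242 regions), with genes known to escape X inactivation marked and the threshold of 18.2 dashed. The X distribution is shifted to the right, with a median of 18.2, and the escape genes lie at its left edge, at or under 10.0.

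Beside the other H3K4me3-strong regions, the very high regions stood out in H3K27me3, H3K27ac and ATAC, and in H3K4me3 only relative to their length. The 63 regions made up 0.0667% of all regions and held 6.65% of the summed H3K27me3 score, 3.09% of the ATAC score, 1.46% of the H3K27ac score and 0.583% of the H3K4me3 score. Only 11 lay at a start site. Their median scores were 557 for H3K27me3, 140 for H3K27ac and 162 for ATAC, while that for H3K4me3 was 38.9 against 54.8 at the other H3K4me3-strong regions. The very high regions were shorter, with a median of 501 bp against 1356 bp. Per kb their median H3K4me3 score was 81.1 against 41.9. Among the member classes their median H3K4me3 score per region was the highest. It was 23.8 at autosomal start-site members, 29.1 on X and 18.1 at autosomal members without a start site. The region at AY036118 on chromosome 17 reached H3K27me3 scores from 2481 to 7211 and ATAC scores from 7337 to 11418 over all libraries. Several bear names of multicopy or pseudogene sequences, such as Pisd-ps2, so reads from near-identical copies could have been assigned to them, and their values are uncertain.

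H3K27me3 at autosomal members, without the very high ones, was lower in CV than in ENR. The library medians over autosomal start-site members were 12, 19 and 22 in CV, 32, 48 and 48 in ENR and 19, 27 and 35 in EN, so that CV and ENR did not overlap and EN overlapped with both. On X the ranges of the library medians were 18 to 26.5 in CV, 28 to 47 in ENR and 19 to 30 in EN. Without a start site they were 21.5 to 27.5, 37 to 44 and 27 to 30. Very high members were highest in CV, at 624 to 661 in CV, 469 to 593 in ENR and 442 to 526 in EN. The H3K27me3-only regions did not show this order, at 24 to 28 in CV, 21 to 27 in ENR and 19 to 23 in EN, and at the other H3K4me3-strong regions the libraries of ENR were not the highest (4 to 7, 3 to 5 and 7 to 10). The part of this opposite order at weak regions in the members' differences was not tested.

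Between CV and ENR, H3K27me3 was lower in CV at 180 members (13.7%) and higher at 4 (0.304%) by limma with Benjamini-Hochberg adjustment over all regions tested at 0.05. Of all regions tested, 0.532% were called lower and 0.207% higher. Since the rule used H3K27me3, these counts describe the members, many of which met the thresholds in some cultures only. Of the 403 members that met both in every culture, 19 (4.71%) were called lower and 1 (0.248%) higher in CV. Their median log2 difference was -0.56. Of the 180, 138 were autosomal start-site members, 42 were autosomal members without a start site and 0 were on X. The median log2 difference was -1.02 over members and 0.32 over all regions. EN against CV gave 30 members higher (2.28%, against 0.140% of all regions) and 13 lower (0.988%, against 0.388%), 10 of which were very high regions. Of the 403, 1 was higher (0.248%) and 11 were lower (2.73%) in EN than in CV, so this balance was not kept. EN against ENR gave 3 members lower and 0 higher (0.0127% and 0% of all regions), with 269 members at an unadjusted limma p under 0.05. The share of all regions at that unadjusted p was not counted. Single libraries moved these totals: the 184 of CV against ENR became 75 without CV replicate 1, 71 without ENR replicate 3 and 70 without ENR replicate 4. The 43 of EN against CV became 14, 11 and 22 without CV replicates 1, 2 and 3 and 18 and 14 without EN replicates 1 and 4. The 3 of EN against ENR became 6, 13 and 0 without ENR replicates 2, 3 and 4 and 22 and 0 without EN replicates 1 and 2. With quantile normalisation all 33 calls of EN against CV were higher in EN.

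**Figure D3:**
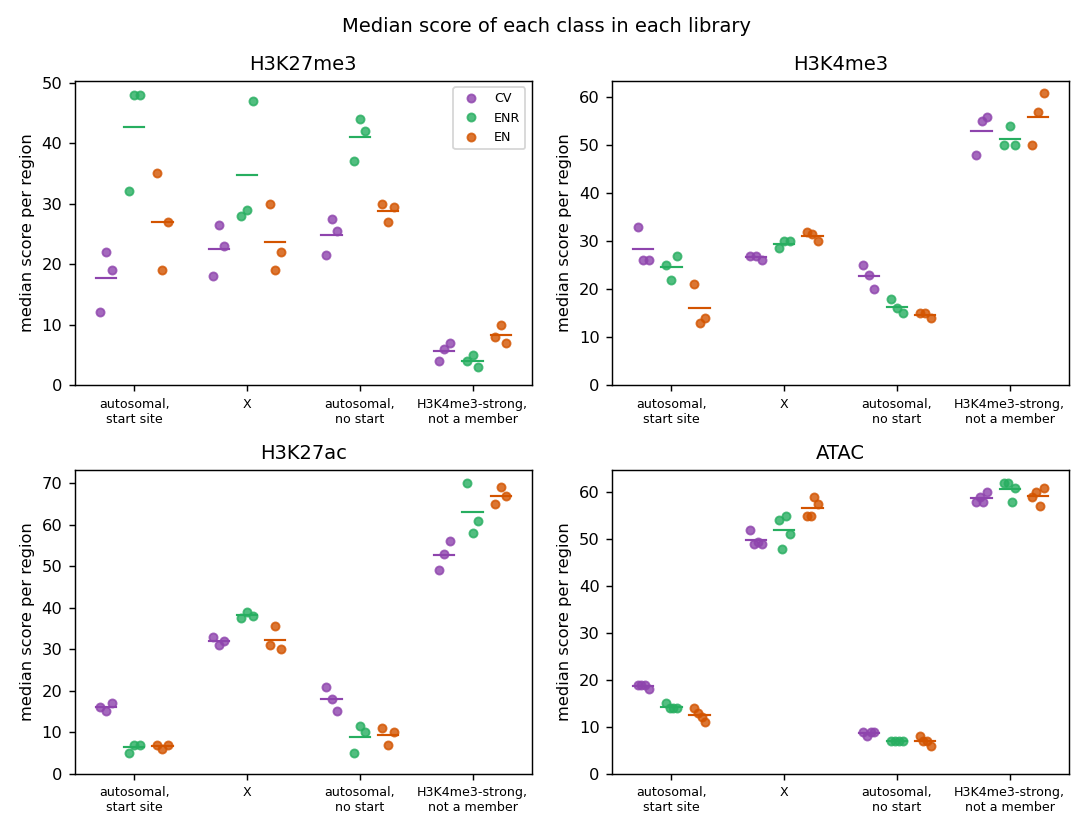
Median score in each library (points) for autosomal start-site members, members on X, autosomal members without a start site and the other H3K4me3-strong regions, by culture and dataset, with lines at the mean of the library medians. At autosomal start-site members H3K27me3 is highest in ENR (32 to 48), H3K27ac highest in CV (15 to 17 against 5 to 7) and H3K4me3 lowest in EN (13 to 21).

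Hoxc6, a Hox factor of trunk patterning, was the Hox member called in all 4 datasets. At its start (chr15:102828505-102829633) H3K27me3 scores were 11, 2 and 16 in CV, 75, 82 and 88 in ENR and 38, 26 and 64 in EN. ENR was above all CV libraries, a log2 difference of -3.28 ± 0.58 (SE) for CV against ENR with an adjusted limma p of 4.8e-05. H3K4me3 scores were 31, 44 and 41 in CV, 8, 4 and 5 in ENR and 4, 5 and 8 in EN, and H3K27ac scores 20, 45 and 34 against 2, 6 and 8 and 7, 4 and 13. Every CV library lay above every ENR and EN library in both marks, with log2 differences for CV against ENR of 2.602 (adjusted p = 0.011) and 2.49 (adjusted p = 0.017). ATAC followed the same order, at 29, 33, 28 and 43 in CV, 12, 7, 7 and 11 in ENR and 10, 5, 7 and 4 in EN. The other 5 Hox members (Hoxa7, Hoxa13, Hoxd3, Hoxd8 and Hoxd13) were called in none of the comparisons of H3K27me3, H3K4me3 and H3K27ac.

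Further promoters had less H3K27me3 in CV than in ENR. Mapk11, which encodes a p38 kinase, had H3K27me3 scores of 3, 1 and 6 in CV, 51, 59 and 75 in ENR and 51, 3 and 29 in EN, a log2 difference of -4.02 ± 0.65 for CV against ENR (limma adjusted p = 6.4e-06). In EN a library fell among those of CV. Gli1, the transcriptional effector and target of Hedgehog signalling, had 3, 3 and 11, then 46, 34 and 99, and 53, 43 and 27, and was the only gene of the Hedgehog group called in H3K27me3 (-3.25 ± 0.61, adjusted p = 0.00019). Its receptor Ptch1 had 11, 32 and 26 in CV and 38, 80 and 44 in ENR and did not pass. The Wnt ligand genes Wnt10a (-2.96, adjusted p = 0.00014) and Wnt11 (-2.23, adjusted p = 0.020) and the tuft cell factor Pou2f3 (-2.51, adjusted p = 0.0073) were also lower in CV than in ENR. Epha7, an ephrin receptor gene, was lower at the larger of its 2 members only (4, 6 and 2 in CV and 38, 37 and 41 in ENR).

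Rbpms, an RNA-binding protein gene, showed the largest rise in H3K27me3 from CV to EN among start-site members whose libraries did not overlap. Its scores were 3, 8 and 2 in CV, 38, 65 and 76 in ENR and 63, 47 and 37 in EN, a log2 difference of 3.36 ± 0.61 for EN against CV (limma adjusted p = 0.00048). The regulator gene Trerf1 had 3, 8 and 2 in CV and 61, 22 and 59 in EN (3.21, adjusted p = 0.00080). Lix1l fell from 112, 74 and 86 in CV and 154, 102 and 195 in ENR to 52, 3 and 65 in EN. With the Wnt ligand gene Wnt4 and the T-box factor gene Tbx1 it made up the 3 members that were lower in EN than in ENR. At Wnt4 the EN scores were 93, 2 and 31 against 80, 104 and 205 in ENR (-2.53, adjusted p = 0.022) and thus overlapped, and EN replicate 2 was the lowest library at each of the 3 genes.

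H3K4me3 was lowest in EN at autosomal start-site members. Library medians there were 26, 26 and 33 in CV, 22, 25 and 27 in ENR and 13, 14 and 21 in EN, whereas on X they were 26 to 27, 28.5 to 30 and 30 to 32. EN against CV called 250 members lower (19.0%, against 2.15% of the 77827 regions tested) and 14 higher (1.06%, against 2.75%), of which 207 and 7 were autosomal start-site members. EN against ENR called 115 lower (8.74%, against 0.700%) and 29 higher (2.20%, against 5.48%), and CV against ENR 0 lower and 29 higher (2.20%, against 0.0270% and 1.10%). At the other H3K4me3-strong regions, EN against CV called 318 lower (2.47%) and 696 higher (5.40%). The rule used H3K4me3, so these counts are a description too, and many members met the thresholds in some cultures only. Of the 403 members that met both in every culture, EN against CV called 20 lower (4.96%) and 5 higher (1.24%). Their median log2 difference was -0.088. EN against ENR called 11 of them lower (2.73%) and 14 higher (3.47%), so the balance of that comparison was not kept. CV against ENR called 0 lower and 2 higher (0.496%). The totals leaned on single libraries. The 264 of EN against CV became 131 and 161 without CV replicates 2 and 4 and 415 and 55 without EN replicates 1 and 2. The 144 of EN against ENR became 46, 61 and 35 without ENR replicates 1, 2 and 4 and 376, 36 and 71 without EN replicates 1, 2 and 4. The 29 of CV against ENR became 12 and 16 without CV replicates 3 and 4, 13, 9 and 0 without ENR replicates 1, 2 and 4, and 82, 45 and 52 without EN replicates 1, 2 and 4.

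H3K4me3 fell from CV to EN at Tmem132c, Mdga2, Bmp6 and Nog. Tmem132c, a transmembrane protein gene, had H3K4me3 scores of 41, 31 and 35 in CV, 9, 11 and 12 in ENR and 1, 2 and 3 in EN (log2 difference -3.66 ± 0.27, limma adjusted p = 0.0010). Mdga2, a neural adhesion gene, had 52, 47 and 43 in CV, 2, 3 and 4 in ENR and 3, 1 and 5 in EN, so ENR and EN were alike and far under CV (-3.73, adjusted p = 0.0014). Bmp6, a BMP ligand gene, went from 86, 65 and 59 through 28, 18 and 20 to 11, 14 and 15 (-2.30, adjusted p = 0.0010). Noggin, the BMP antagonist that is also added to all 3 media, had a member at its gene Nog with 37, 24 and 21 in CV and 9, 2 and 3 in EN (-2.48, adjusted p = 0.031). In the opposite direction H2-T3, a nonclassical MHC class I gene, rose from 15, 18 and 22 in CV and 20, 22 and 23 in ENR to 71, 77 and 112 in EN (2.17 ± 0.21, adjusted p = 0.0010). Cdkn1c, an inhibitor of the cell cycle, had 8, 9 and 8 in CV and 31, 31 and 15 in EN (1.45, adjusted p = 0.025).

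H3K27ac, which the rule did not use directly, was higher in CV than in ENR at autosomal members. Library medians over autosomal start-site members were 15, 16 and 17 in CV, 5, 7 and 7 in ENR and 6, 7 and 7 in EN, while on X they were 31 to 33, 37.5 to 39 and 30 to 35.5. At the other H3K4me3-strong autosomal start-site regions CV was the lowest (54 to 63, 67 to 80 and 75 to 79). CV against ENR called 94 members higher (7.14%, against 0.541% of the 94215 regions tested) and 20 lower (1.52%, against 1.29%). These calls depended on the fit: with quantile normalisation 52 were higher and 4 lower, and when limma's variance trend was left out 0 were called. With the trend 508 members had an unadjusted limma p under 0.05, and the share of all regions at that cutoff was not counted. Of the other H3K4me3-strong regions, 52 were called higher (0.404%) and 1141 lower (8.86%). By class, 67 of the 94 were autosomal start-site members, 20 had no start site, 7 were very high and 0 were on X, while 10 of the 20 lower members were on X. The median log2 difference was 1.02 at autosomal start-site members, -0.33 on X, -0.29 at the other H3K4me3-strong regions and 0.33 over all regions.

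EN against CV called 177 members lower in H3K27ac (13.5%, against 1.96% of all regions) and 37 higher (2.81%, against 5.07%). Quantile normalisation gave 187 lower and 14 higher, and limma without its variance trend 50 lower and 0 higher. EN against ENR called 14 higher and 13 lower (1.06% and 0.988%, against 1.22% and 0.353%). With quantile normalisation this split was 6 higher and 18 lower. On X, 12 members were higher and 5 lower in EN than in CV. Leaving out single libraries changed the totals. The 114 of CV against ENR became 74 and 58 without CV replicates 4 and 5, 40, 65 and 24 without ENR replicates 1, 2 and 4, and 65, 54 and 61 without EN replicates 2, 3 and 4. The 214 of EN against CV became 129 without CV replicate 5 and 106, 99 and 96 without EN replicates 2, 3 and 4. The 27 of EN against ENR became 10 without ENR replicate 4 and 11, 11 and 9 without EN replicates 2, 3 and 4.

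**Figure D4:**
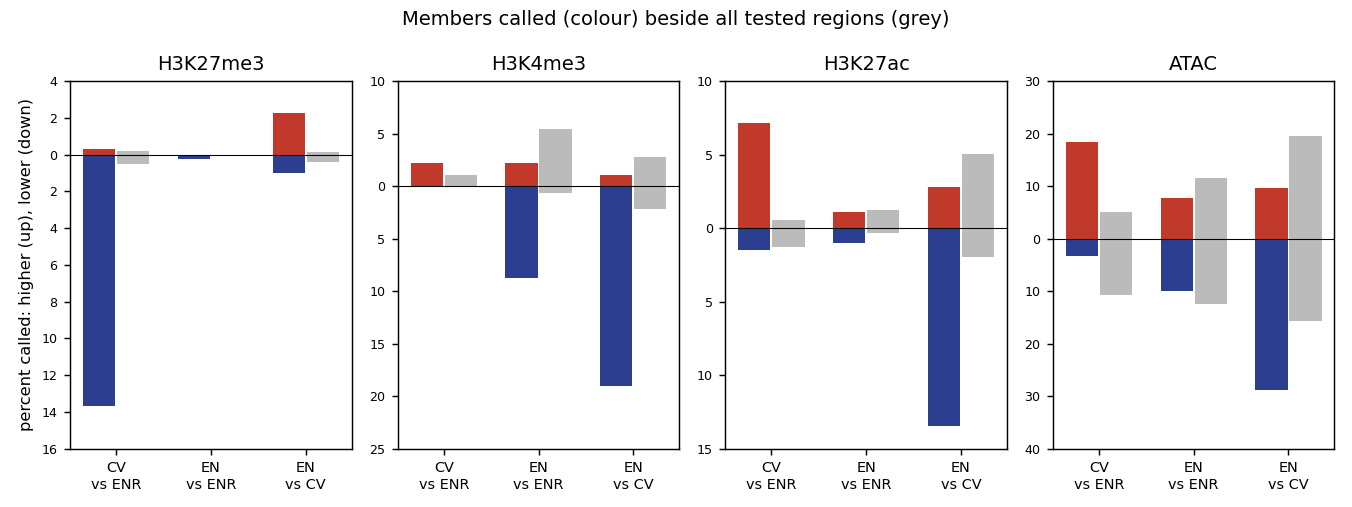
Percent of members (coloured) and of all regions tested (grey) called higher (up) or lower (down) by limma at an adjusted p of 0.05, for 4 datasets and 3 comparisons of cultures. Members exceed the background among regions higher in CV for H3K27ac (7.14% against 0.541%) and ATAC (18.4% against 5.11%), and among regions lower in EN than in CV for H3K27ac (13.5% against 1.96%) and ATAC (28.9% against 15.6%).

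Fst, which encodes the activin and BMP antagonist follistatin, had the largest H3K27ac rise in CV over ENR among start-site members called without overlap of libraries. Its H3K27ac scores were 144, 46 and 115 in CV, 6, 12 and 4 in ENR and 6, 16 and 4 in EN, a log2 difference of 3.59 ± 0.55 for CV against ENR (limma adjusted p = 0.00025). CV lay above all other libraries. H3K4me3 at Fst was 92, 86 and 73 in CV, 78, 66 and 99 in ENR and 76, 46 and 41 in EN and was not called. The BMP-pathway gene Fstl4 had H3K27ac scores of 32, 15 and 33 in CV and 3, 2 and 4 in ENR (2.74, adjusted p = 0.012), and Efna3, an ephrin ligand gene, 141, 152 and 132 against 29, 45 and 31 (2.01, adjusted p = 0.00039). Gli1 had 24, 15 and 22 against 2, 2 and 1 (3.00, adjusted p = 0.0058).

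The largest such H3K27ac falls from CV to EN were at Slc43a1, Tifa and Kif26b. Slc43a1, an amino acid transporter gene, had 52, 80 and 67 in CV, 3, 10 and 16 in ENR and 3, 6 and 5 in EN (-3.59 ± 0.55, limma adjusted p = 4.0e-05). Tifa, an adaptor gene of NF-kappaB signalling, had 113, 151 and 126, then 50, 33 and 74, and 6, 11 and 15 (-3.56 ± 0.39, adjusted p = 2.3e-07), a graded fall with no overlap between cultures. Kif26b, a kinesin gene, had 76, 41 and 34 in CV, 18, 11 and 26 in ENR and 5, 2 and 3 in EN (-3.54, adjusted p = 2.7e-05). Slc6a3, the dopamine transporter gene, went the other way, with 9, 20 and 9 in CV, 7, 4 and 4 in ENR and 34, 44 and 54 in EN (2.92 ± 0.52 against ENR, adjusted p = 0.0016). H2-T3 had 94, 62 and 85, then 54, 43 and 48, and 161, 142 and 153, so EN was the highest here as for H3K4me3. H3K27me3 at H2-T3 was also highest in EN, at 8, 13 and 7 in CV, 18, 13 and 27 in ENR and 28, 32 and 28 in EN. It was not called.

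**Figure D5:**
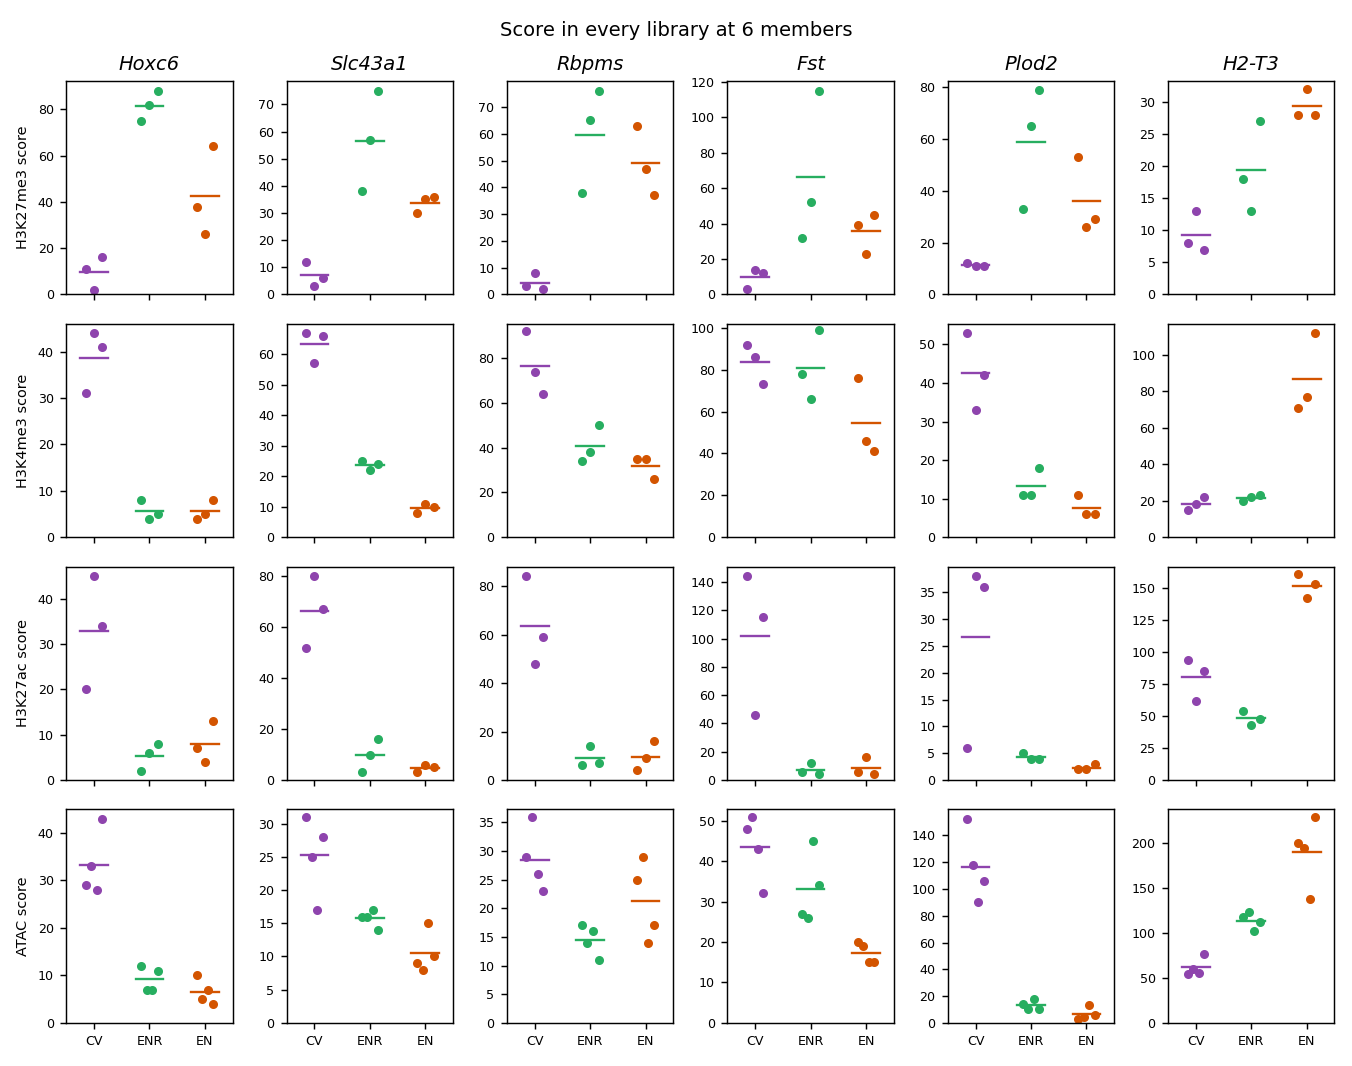
Score in every library (points) at the members of Hoxc6, Slc43a1, Rbpms, Fst, Plod2 and H2-T3 for H3K27me3, H3K4me3, H3K27ac and ATAC, by culture, with lines at culture means and separate vertical scales. In the first 5 genes CV has the lowest H3K27me3 and the highest H3K27ac mean, whereas H2-T3 has its highest H3K27me3, H3K4me3, H3K27ac and ATAC scores in EN.

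Accessibility, which the rule did not use, was higher in CV than in ENR at more members than lower. Many members met the thresholds in some cultures only, so this count is not free of the rule, and the counts for members that met them in every culture are given further on. Library medians of the ATAC score over autosomal start-site members were 18 to 19 in CV, 14 to 15 in ENR and 11 to 14 in EN, and at the other H3K4me3-strong autosomal start-site regions 65 to 67, 65 to 69 and 66 to 69. CV against ENR called 242 members higher (18.4%, against 5.11% of the 94166 regions tested) and 44 lower (3.34%, against 10.7%). EN against CV called 380 lower (28.9%, against 15.6%) and 126 higher (9.57%, against 19.6%). With quantile normalisation this split was 469 lower and 63 higher. EN against ENR called 130 lower and 102 higher (9.88% and 7.75%, against 12.5% and 11.6%), which quantile normalisation turned into 172 and 68. By class, members on X had 45 higher and 14 lower in EN than in CV and very high members 12 higher and 1 lower, while autosomal start-site members had 53 higher and 303 lower and those without a start site 16 higher and 62 lower.

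Plod2, which encodes a collagen lysyl hydroxylase, had the largest fall in accessibility from CV to EN among start-site members called without overlap. Its ATAC scores were 152, 118, 90 and 106 in CV, 14, 10, 18 and 10 in ENR and 3, 4, 13 and 6 in EN, a log2 difference of -4.12 ± 0.31 for EN against CV (limma adjusted p = 2.3e-08). No library of ENR or EN came near those of CV. Lifr, a cytokine receptor gene, had 67, 69, 87 and 66 in CV against 8, 5, 10 and 8 in ENR (3.09, adjusted p = 6.5e-07), and Prox1, a homeobox factor gene, 63, 36, 48 and 33 against 11, 8, 11 and 14 (1.92, adjusted p = 0.00061). Of the 23 members at other homeobox genes, 17 were less accessible in EN than in CV and 0 more, and 12 were more accessible in CV than in ENR, against 28.9% and 18.4% of all members and 15.6% and 5.11% of all regions. The corresponding counts were 4 of 13 for the Sox, Fox, Gata and T-box genes, 1 of 6 for Hox, 1 of 7 for bHLH, 2 of 16 for Wnt and 4 of 8 for BMP and TGF-beta genes less accessible in EN than in CV. Ifitm2, an interferon-induced membrane protein gene, had 45, 41, 43 and 40 in ENR and 16, 6, 7 and 8 in EN (-2.17, adjusted p = 4.7e-06). Slc6a3 rose from 17, 12, 14 and 15 in ENR to 43, 49, 51 and 52 in EN (1.69, adjusted p = 2.2e-06).

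The changes met at the same members in part. Of the 180 members with lower H3K27me3 in CV than in ENR, 36 had higher H3K27ac (20.0%, or 38.3% of the 94) and 85 higher ATAC (47.2%, or 35.1% of the 242). Of the 250 members with lower H3K4me3 in EN than in CV, 149 had lower ATAC (59.6%, or 39.2% of the 380) and 78 lower H3K27ac (31.2%, or 44.1% of the 177). The comparisons with CV share the CV libraries of each dataset. Among the 403 members that met both thresholds in every culture, 33 (8.19%, against 5.11% of all regions) were more and 19 (4.71%, against 10.7%) less accessible in CV than in ENR, with a median log2 difference of 0.04. In EN against CV 73 of these (18.1%, against 15.6%) were less and 52 (12.9%, against 19.6%) more accessible, so the ATAC shares were closer to those of all regions than over all members. For H3K27ac, 28 (6.95%, against 0.541%) were higher and 13 (3.23%, against 1.29%) lower in CV than in ENR, and 47 (11.7%, against 1.96%) were lower and 19 (4.71%, against 5.07%) higher in EN than in CV.

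Genes with an autosomal start-site member were seldom in the RNA table, which holds only transcripts whose protein had also been quantified. Of 905 such genes 164 (18.1%) were listed, against 7725 of 11700 genes (66.0%) with another H3K4me3-strong start-site region and 101 of 165 genes (61.2%) with a member on X. The median level of the listed transcripts was 3.34 TPM, 23.4 TPM and 17.9 TPM. Among the 164, 44 also had another H3K4me3-strong start, so their RNA need not come from the member promoter. No Hox gene of the list was in the table.

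Where the RNA of autosomal start-site genes was measured, it was more often higher than lower in CV. Of all members, 97.1% met the H3K4me3 threshold in CV, 88.4% in ENR and 73.5% in EN, so these counts are not free of the rule. RNA was not counted apart for members that met the thresholds in every culture. In edgeR's quasi-likelihood test with Benjamini-Hochberg adjustment at 0.01, 93 of 177 transcripts (52.5%) were higher and 33 (18.6%) lower in CV than in ENR, against 30.2% and 29.8% of all 9288 transcripts tested. EN against CV gave 96 lower and 44 higher, against 41.2% and 35.2% of all. EN against ENR gave 48 in each direction, against 37.2% lower and 35.5% higher. The median log2 difference for CV against ENR was 0.58, or 0.46 with genes at 3 counts or fewer in a culture placed at their bound. For EN against CV it was -0.96, or -0.82 at the bounds. On X, 37 of 109 transcripts were higher and 30 lower in CV than in ENR, 25 higher and 56 lower (51.4%) in EN than in CV, and 34 higher and 55 lower in EN than in ENR.

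Transcripts of members whose promoters changed were counted by direction. Over all transcripts tested, 30.2% were higher and 29.8% lower in CV than in ENR, and 35.2% higher and 41.2% lower in EN than in CV. H3K27me3 and H3K4me3, which define some of these lists, were used by the rule. Members with lower H3K27me3 in CV than in ENR had 33 tested transcripts, of which 29 were higher in CV and 1 lower. Members with higher H3K27ac had 20, of which 17 were higher and 1 lower, and members with higher ATAC had 49, of which 37 were higher and 5 lower. For EN against CV, lower H3K4me3 went with 33 lower and 4 higher of 41 transcripts, lower H3K27ac with 34 and 5 of 44, and lower ATAC with 49 and 11 of 75.

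Plod2 RNA, in counts scaled to library size (CPM), was 120 ± 9.34 in CV and 0.671 ± 0.331 in ENR (mean ± SD, n = 4), a log2 difference of 7.38 ± 0.15 by edgeR (adjusted p = 2.2e-14). In EN it had at most 1 count, at least 187-fold lower than in CV, taking 3 counts per library as the floor. Fn1, which encodes the matrix protein fibronectin, had 11.8 ± 1.97 CPM in CV and at most 1 count in ENR and EN libraries, at least 24.0-fold and 18.3-fold lower. Rab34, a GTPase gene of ciliogenesis and the Golgi, fell from 9.40 ± 0.743 CPM in CV to 0 counts in EN, at least 14.6-fold, and Prkch, a protein kinase C gene, from 10.25 CPM to at most 1 count, at least 16.0-fold. These genes shared near absence in EN and clear RNA in CV. Mean RNA was also highest in CV and lowest in EN at Slc43a1 (8.43, 0.772 and 0.464 CPM in CV, ENR and EN), Mapk11 (25.2, 3.73 and 1.75), Tifa (98.5, 27.5 and 3.34) and Efna3 (54.8, 9.06 and 7.05). EN against ENR passed by edgeR at Mapk11 and Tifa but not at Slc43a1 (adjusted p = 0.15) and Efna3 (adjusted p = 0.018). Mean H3K27ac was highest in CV at all of these, among them Mapk11 (41.3, 6.0 and 9.33) and Efna3 (142, 35.0 and 38.3). In H3K27ac EN against ENR was called at Tifa only, where EN was lower, so the order of ENR and EN at the others is not settled.

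The rises from CV to EN were led by H2-T3, at 4.20 ± 0.240 CPM in CV, 26.4 ± 4.00 in ENR and 135 ± 5.01 in EN (log2 difference 5.01 ± 0.10 by edgeR, adjusted p = 9.7e-16). The guanine nucleotide exchange factor gene Arhgef2 rose from 5.50 to 63.5 CPM (3.53) and the X-linked monoamine oxidase gene Maoa from 418 to 3470.5 (3.05). At the Arhgef2 member H3K4me3 did not follow the RNA, with scores of 37, 34 and 21 in CV, 39, 37 and 39 in ENR and 11, 12 and 21 in EN. Whether the Arhgef2 RNA came from this promoter was not tested. Rbbp7, the X-linked gene of a Polycomb repressive complex 2 subunit, fell from 354 ± 3.76 CPM in ENR to 100 ± 4.87 in EN (-1.82, adjusted p = 1.1e-14), and its H3K27ac scores of 140, 108 and 100 in ENR and 111, 101 and 72 in EN were not called.

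Hnf4g reads, with 1 library per culture and so no test, were more frequent in members than their share of regions. Members are 1.39% of regions and held 13.8% of the Hnf4g reads in CV (exact 95% interval 13.6 to 14.0%), 12.3% in ENR (12.2 to 12.4%) and 8.06% in EN (8.02 to 8.10%). The intervals cover counting error only, of 84340, 352600 and 1816497 reads. The other H3K4me3-strong regions, 13.6% of all regions, also held more than their share, at 37.4%, 38.5% and 56.9%. Most of the members' reads in each culture lay in the 63 very high regions, which held 9.77%, 6.66% and 4.28% of all reads in CV, ENR and EN. Without them the shares were 4.03%, 5.66% and 3.78%, beside a median length of 975 bp for these members and 220 bp for all regions. H2-T3 had 8, 49 and 604 reads in CV, ENR and EN.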

How the data were processed

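ATAC-seq and ChIPmentation regions came from a table in which the authors deposited scores, whole-number read counts per region of the union of peaks after a normalisation whose method is not given in the sources used here. Per the study's methods and the submitters' processing notes, reads were aligned to mm9 with BWA, duplicates removed with Picard and peaks called with MACS2 2.0 at a false discovery rate. For H3K27me3 the columns are marked as extended with 1000 bp, so its scores are not given per length. Hnf4g values are raw counts the authors deposited. RNA values are the estimated counts and TPM the authors deposited from kallisto (0.43.0 per the processing notes), only for transcripts with a quantified protein, and spike-ins were left out here. Of 66 samples 54 had a column, 0 columns lacked a sample, and 12 samples, 10 of them histone libraries, were not analysed here. Summed scores were 1010511 to 1327017 for H3K27me3, 817265 to 1100967 for H3K4me3, 1345873 to 1760511 for H3K27ac and 1752385 to 2109261 for ATAC, and RNA libraries had 5630951 to 8859744 counts.

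Region scores were tested as log2(score + 1) with limma 3.58.1 (R 4.3.3, spread following the mean, 3 cultures in 1 fit per dataset, regions above 0 in at least 3 libraries), so that fold changes of low regions are understated. RNA was rounded and tested with edgeR 4.0.16 (TMM, quasi-likelihood, above 0 in at least 4 libraries). Both were tested on simulated data. Nothing in the labels says that replicates were separate cultures, so p-values measure the spread between libraries. Start sites were from GENCODE vM1 (mm9) and region coordinates are as the table gives them. The members, gene lists, tests and classes were chosen with earlier results of these data known. Named were the 6 start-site members strongest in both marks, the largest non-overlapping called changes per dataset, up to 6 members per gene list, and the 5 largest RNA rises and falls. Alternatives were pseudocount 5, no trend, quantile normalisation, a replicate block, DESeq2 1.42.0, other thresholds and each library left out. Some items are not reported here.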

Additional observations from a re-analysis of the deposited data

Results flagged for a closer look

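Of 63 groups of 4 libraries examined, 10 had a library far from the other 3 by Dixon's criterion, which chance gives in about 1 of 20 groups. Among library medians of the ATAC score the outlying values were 18 in CV and 15.0 in ENR at autosomal start-site members, 52.0 in CV on X and 8.0 in CV at autosomal members without a start site, where whole-number medians with ties make a gap of a single unit stand out. The ATAC score at Sall3 in ENR was lowest in 1 library, at 25, and that at Lifr in CV highest in 1 library, at 87.0. In RNA the outlying values were 0.164 CPM for Fn1 in ENR, 0.178 CPM for Fn1 in EN and 0.214 CPM for Prkch in EN, each a single count where the other 3 libraries had 0, and 1.38 CPM for Mfsd7c in ENR.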

How the results depend on the processing

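Leaving out a library in turn gave 11 to 56 members called in H3K27me3 for EN against CV, 0 to 22 for EN against ENR and 70 to 235 for CV against ENR, and 55 to 415, 35 to 376 and 0 to 82 in H3K4me3. In H3K27ac the ranges were 96 to 198, 9 to 33 and 24 to 80, in ATAC 450 to 525, 163 to 248 and 231 to 335, and for RNA 212 to 222, 178 to 185 and 183 to 197 transcripts. The number of members ran from 1217 to 1390. The replicate numbers were not taken to pair the samples, since not every same-numbered pair correlated above 0.1 in its deviations: 0.0695 to 0.46 in ATAC (mean 0.17, against -0.0557 for other pairs, so a shared number went with some likeness there), -0.0518 to 0.0357 in H3K27ac, -0.043 to 0.0199 in H3K27me3, -0.0813 to 0.131 in H3K4me3 and -0.059 to 0.0955 in RNA. Blocking on that number gave 16, 2 and 58 in H3K27me3 (in the order above), 65, 67 and 0 in H3K4me3, 0, 0 and 0 calls in H3K27ac, 539, 278 and 321 in ATAC and 212, 182 and 189 in RNA. At an unadjusted limma p under 0.05 without the block, 541, 173 and 508 members passed in H3K27ac, and the share of all regions at that cutoff was not counted. Without the trend of the spread the adjusted calls were 0, 0 and 33 in H3K27me3, 50, 0 and 0 in H3K27ac and 136 for ATAC in EN against ENR. Quantile normalisation gave 0 in H3K27me3 for EN against ENR, 96 for CV against ENR and 56 in H3K27ac for CV against ENR, and pseudocount 5 gave 1 in H3K27me3 for EN against ENR. The cause of these moves was not tested. The members numbered 407 with the top 10% by H3K4me3, 616 with the top 5% by H3K27me3 and 827 with H3K4me3 per kb. The share at a start site was 79.2% within 1000 bp and 70.5% for protein-coding transcripts, the shares in the upper part of all regions were 33.7% for H3K27ac and 32.8% for ATAC per kb, and the Hnf4g shares were 3.73%, 4.47% and 4.23% without the 1% of regions with most reads. For named regions and transcripts, 3158 of 3851 values under alternatives kept direction and call, 692 kept direction only, and 1 reversed: ATAC at Pisd-ps2, EN against CV, to -0.0496 under quantile normalisation. Scores under about 10 rest on few reads, so differences there are the least certain.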

Other observations

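The 6 start-site members that stood highest in both marks were the regions at 3110070M22Rik, 8430427H17Rik, AY036118, Pisd-ps1 and Pisd-ps2 and the G6pdx and Ikbkg promoter region on X, with mean H3K4me3 scores from 104 to 271. Of these, 8430427H17Rik differed between cultures in H3K27me3, with 22, 16 and 48 in CV, 156, 142 and 431 in ENR and 182, 70 and 80 in EN (log2 difference -2.995 for CV against ENR, limma adjusted p = 6.4e-06), and its H3K27ac scores were 65, 46 and 65 in CV against 3, 28 and 16 in ENR (2.23, adjusted p = 0.023). Its ATAC scores stayed between 7 and 23 in every library. At the G6pdx and Ikbkg region the ATAC scores were 1 to 11 beside H3K4me3 scores of 58 to 183.

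The 258 autosomal members without a start site lay at a median of 5246 bp from the nearest annotated start. Their H3K27ac medians per library were 15 to 21 in CV, 5 to 11.5 in ENR and 7 to 11 in EN, while their ATAC medians were 8 to 9, 7 and 6 to 8. Of the 130 members within 5000 bp of another member, the 3 regions at Fgf9 had H3K27me3 scores of 3 to 17 in CV and 21 to 56 in ENR, and 2 of the 3 were called lower in CV. The share of the GC box in members without a start site was 49.8%.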
